A study of Mus musculus with 24 samples.

Results

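The comparison concerns liver kept for 18 h in formalin before paraffin embedding, from mice dosed with furan and from mice given the vehicle. It rests on the 8 libraries whose labels name this fixation, 4 control and 4 furan, out of 24 libraries from the same 8 mice, and every gene that could be tested in them is described. All mice were females of the hybrid strain B6C3F1, 5 to 6 weeks old when purchased, by the labels. Furan was given in corn oil by mouth at 8 mg/kg/day over 21 days, controls received the oil, and livers were taken 4 hours after the last dose. The pieces of each liver that were frozen or fixed for 3 weeks appear below only beside values of the 18 h pieces. RNA came from a single section of each block, and the labels give RNA integrity numbers of 1.3 to 2.4 for the fixed tissue, values of strongly fragmented RNA. Each library stands for a different animal. Values in lists follow the order control animals 2, 3, 4 and 6, then furan animals 41, 42, 43 and 44.

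Furan is a small volatile ring compound that forms in heated food. In hepatocytes the cytochrome P450 Cyp2e1 opens the ring and yields a reactive dialdehyde, which binds glutathione and the amino groups of proteins. Cells meet such electrophiles through the transcription factor NRF2, which drives detoxifying enzymes and glutathione supply. Damaged protein engages the heat shock factors and ATF4, and DNA damage engages p53.

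A gene was called changed when its adjusted p was below 0.05 (edgeR quasi-likelihood test, Benjamini-Hochberg over all genes tested). By this rule 2208 of 14204 genes, or 15.5%, were called. Of all genes tested, 7.82% were called higher and 7.72% lower with furan. These shares are set beside the groups of genes below and are not matched to the level of their members. The 4 furan libraries all lay above the 4 controls for 10.3% of the genes and all below for 9.9%. The median log2 fold change over all genes was -0.0025. The balance in number depended on the scaling, here TMM. Library totals alone gave 1318 genes higher and 911 lower, and upper-quartile scaling 967 and 1272. Large changes were mostly rises: of 35 called genes that moved over 4-fold, 32 were higher and 3 lower. Most calls were small, 1309 between 1.2-fold and 1.5-fold and 310 below 1.2-fold.

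The size of change that could be called depended on the level of the gene, which is given as CPM, a share of TMM-scaled counts. In the fifth of genes with the lowest counts (0.349 to 2.52 CPM) the median standard error was 0.438 on the log2 scale and 97 genes, or 3.41%, were called, none below 1.77-fold. In the fifth with the highest counts (57.4 CPM and above) the median standard error was 0.0691 and 868 genes, or 30.6%, were called, down to 1.13-fold. Counts of calls in a group of genes thus depend on how abundant its members are, and a gene that was not called may have changed by less than these limits.

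**Figure D1:**
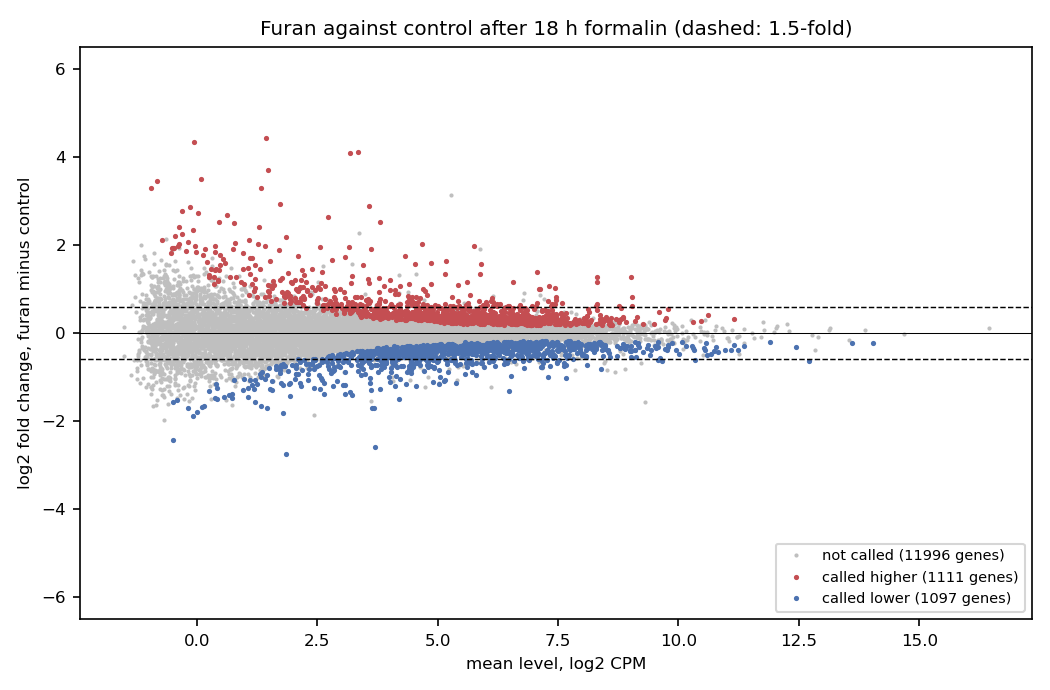
Each point is 1 of 14204 genes, with its mean level (log2 CPM) on the x axis and its log2 fold change, furan minus control, on the y axis; red and blue points were called higher (1111) and lower (1097), grey points were not called, and dashed lines mark 1.5-fold. Called genes reach closer to 0 as the level rises.

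The libraries had 22.9 to 28.1 M counts each, and totals of the 2 groups did not separate (exact permutation test, two-sided, p = 0.343; 4 against 4 allows no p under 0.0286). Hepatocyte genes had the counts of liver: the 24 hepatocyte markers summed to 158500 to 169100 CPM of total counts in controls and 162000 to 174000 with furan. Transcripts of other tissues were present too. Furan animal 44 had 628 counts in 9 skeletal muscle genes such as Acta1, Ckm and Mb, against 0 to 6 in the other 7 libraries. Control animal 2 had 240 counts in 7 intestinal genes such as Sis, Alpi and Krt20, against 0 to 4 in the others. The pair does not hold all such transcripts: Gpr128 and Slc26a3, which intestine also makes, had counts in 7 of the 8 libraries, all but control animal 4, and Slc26a3 had 157 counts in control animal 3 and 141 in control animal 2. Dmbt1, another such gene, had 24 counts in control animal 4 and 281 to 4335 in the others. The part of these transcripts in the results below was not tested. Leaving out the pair is no such test, since smaller groups by themselves tend to give fewer calls. No other pair was left out for comparison. Without control animal 3 alone 1582 genes were called, 730 higher and 852 lower. Without control animal 2 alone 1921 were called, and without furan animal 44 alone 1730. Without both libraries 1417 genes were called, 709 higher and 708 lower. The counts of calls without both libraries, the pair of control animal 2 and furan animal 44, are given beside the groups below. The muscle and intestinal genes themselves were chosen after their values were seen.

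The largest changes above 2 CPM, all without overlap, came from genes of several kinds. Mmp12, the macrophage elastase, had 0.175, 0.120, 0.129 and 0.485 CPM in controls and 3.31, 2.10, 8.83 and 5.70 CPM with furan (log2 4.44 ± 0.56; adjusted p = 2.45e-04). Dusp8, a phosphatase that switches off stress-activated MAP kinases, rose from 0.375 ± 0.163 to 4.97 ± 1.55 CPM (log2 3.72 ± 0.34). Phlda3, a p53-induced inhibitor of AKT, rose by 2.93 ± 0.30, Hapln1, which links hyaluronan to proteoglycans, by 3.30 ± 0.48, and the P450 gene Cyp3a16, whose reads may be shared with its relatives, by 2.89 ± 0.69. Elovl3, which lengthens fatty acids, had 9.59, 8.05, 4.91 and 2.34 CPM in controls and 0.472, 0.462, 1.55 and 1.24 CPM with furan (log2 -2.74 ± 0.53; adjusted p = 0.00818), and its exons overlap those of Pitx3. Slc2a5, the fructose carrier, fell by 1.40 ± 0.23, and Lect1, now Cnmd, by 1.81 ± 0.27. Control animal 6 had the highest control value for Mmp12 and stood apart from the other controls, and still lay below all furan libraries.

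Targets of p53 held many of the largest and most certain rises. Of 42 members tested, 21 rose and 2 fell (median log2 fold change 0.64), and 19 rose without both libraries named above. Ccng1, a cyclin that p53 induces, had 55.7, 58.2, 60.0 and 58.8 CPM in controls and 118, 121, 140.2 and 143 CPM with furan, a log2 fold change of 1.17 ± 0.07 (SE; adjusted p = 3.43e-08). Every furan library lay above every control. Cdkn1a, which encodes the cell-cycle inhibitor p21, had 1.53, 1.08, 1.42 and 0.309 CPM in controls and 19.3, 16.8, 21.0 and 18.6 CPM with furan, which is 17.3-fold (adjusted p = 1.37e-06). Control animal 6 had the lowest value and no library overlapped. Zmat3, an RNA-binding protein of the p53 response, went from 17.6 ± 1.99 to 54.4 ± 7.92 CPM (SD, n = 4; log2 1.63 ± 0.11), and Trp53inp1, which promotes p53 activity and autophagy, from 113 ± 3.18 to 232 ± 29.9 CPM (log2 1.03 ± 0.08).

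The members that rose covered different branches of the pathway. Mdm2, the ubiquitin ligase that degrades p53, rose by 0.85 ± 0.08 on the log2 scale, while its relative Mdm4 fell by 0.31. The receptor genes Eda2r and Tnfrsf10b rose by 4.09 and 2.69, and Bax, which opens the mitochondrial membrane, by 0.70. Perp, a membrane protein of the same list, fell by 0.28. Repair and stress members included Polk, a polymerase that copies damaged DNA, at 0.98, the nuclease gene Aen at 1.14, and Sesn2, a regulator of growth signalling, at 1.30. Outside this list, 4632434I11Rik, which RefSeq now lists as Ddias, rose from 1.80 ± 0.414 to 11.2 ± 1.21 CPM (log2 2.63 ± 0.19; adjusted p = 1.49e-07). Among 76 DNA repair genes 6 rose and 3 fell, or 7.89% and 3.95%, near and below the shares over all genes. Without both libraries 1 rose and 2 fell. With 1 library left out 1 to 7 rose, fewest without control animal 3. Rad51b, a member of the recombination machinery, fell from 13.5 ± 1.88 to 5.12 ± 0.866 CPM (log2 -1.40 ± 0.16). Of 33 genes of the BCL2 family and caspases 1 rose and 2 fell (1 and 2 without both libraries), with Bmf, a killer protein of that family, at -1.19 and Casp6 at -0.74. These shares, 3.03% and 6.06%, lie below those over all genes.

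Genes that the antioxidant factor NRF2 is known to drive rose in larger part than any other list shown in the plot of lists. Of 39 tested, 23 rose and 1 fell (median 0.41), with 18 higher and 1 lower without both libraries. Srxn1, sulfiredoxin, which restores oxidised peroxiredoxins, had 32.4, 33.6, 35.2 and 30.8 CPM in controls and 92.7, 69.9, 86.0 and 88.3 CPM with furan (log2 1.35 ± 0.09; adjusted p = 3.67e-08). Ephx1, the microsomal epoxide hydrolase, had 187, 196, 215 and 192 CPM in controls and 464, 356, 475 and 458 CPM with furan (log2 1.15 ± 0.08; adjusted p = 3.83e-07). Furan animal 42 was the lowest of its group for both genes, and still above every control. Nfe2l2, the gene of NRF2 itself, rose from 92.6 ± 4.53 to 127 ± 16.6 CPM (log2 0.46 ± 0.08; adjusted p = 9.13e-04), and its inhibitor Keap1 did not pass, at -0.19 ± 0.08.

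The rises lay at several steps of electrophile handling. In glutathione supply 7 of 22 genes tested rose and 2 fell (median -0.03; 5 and 1 without both libraries). Gclc, the catalytic subunit of the first enzyme, rose by 0.82 ± 0.10, Slc7a11, the cystine importer, by 3.29 ± 0.70 from a low level, and Gss, the second enzyme, by 0.38 ± 0.08. Gclm, the modifier subunit, was not called (0.14 ± 0.07; adjusted p = 0.198). In conjugation, Gstm1 rose by 0.62, Gstp1 by 0.58, and Gsta1 and Gsta2 by 2.21 and 1.75, while Gstm6, Gstt2 and Gstk1 fell by 0.45, 0.43 and 0.24. Members of the Gsta and Gstm families are close in sequence, and reads could be split between them. In quinone and thioredoxin reduction 10 of 28 genes tested rose and 3 fell (8 and 1 without both libraries). Nqo1 rose by 1.25 ± 0.13, Txnrd1 by 0.67 ± 0.06 and Cbr3 by 1.93 ± 0.57. In NADPH supply 2 of 14 genes tested rose and 1 fell (2 and 1 without both libraries). G6pdx rose by 0.67 and Pgd by 0.49. In export, the conjugate pumps Abcc2 and Abcc4 rose by 0.41 and 0.68. Blvrb, biliverdin reductase B, was the member of the NRF2 list that fell, by 0.30.

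**Figure D2:**
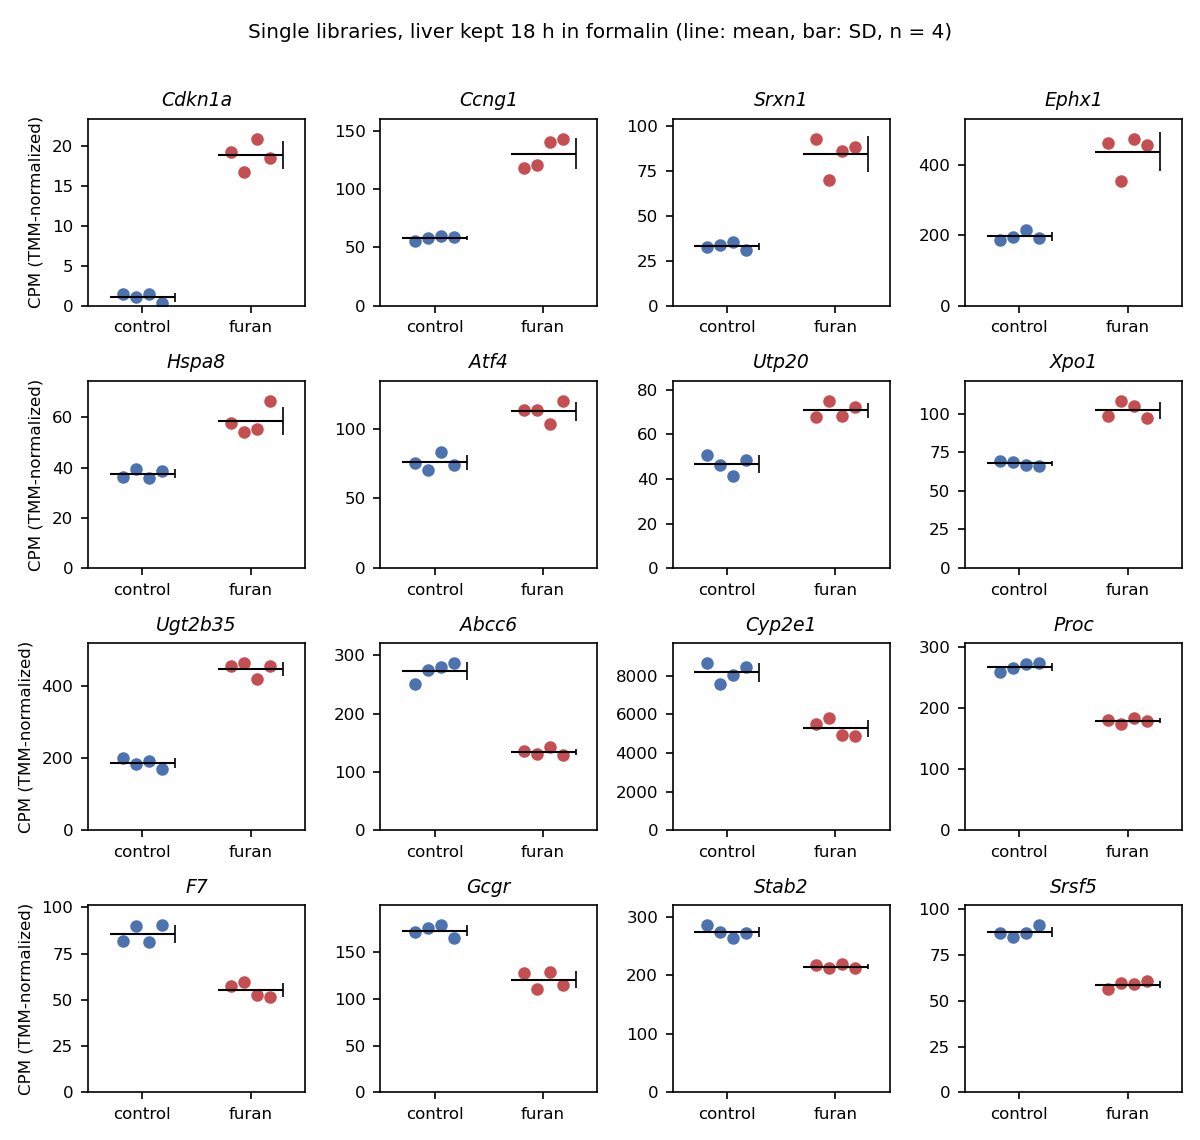
Each panel shows 1 gene, with the 4 control libraries (blue) and the 4 furan libraries (red) as points, CPM on the y axis from 0, the mean as a line and the SD as a bar (n = 4). In all 16 panels the points of the 2 groups stand apart, and the genes shown were picked from those called.

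Promoters of the NRF2 targets were searched for the core of the antioxidant response element, TGACNNNGC, to which NRF2 binds. RefSeq windows (build GRCm38.p6) were at hand for 34 of the 39 tested members, and 250 bases before the start were read on both strands. Of these, 10 held the core, which is 29.4%, against 11.5% of all 27025 genes in that table and 13.7% of the 11107 tested genes with a window. Among the called members with a window 5 of 21 held it, or 23.8%, a smaller share than among all members. The windows below are shown because their genes were called, had the smallest p among the called members with a match, and show the core letters, which are in capitals. Txnrd1 lies at chr10:82859078-82859157 (plus strand), Ugdh at chr5:65435931-65436010 (minus strand) and Abcc4 at chr14:118706220-118706299 (minus strand), each written 5′ to 3′ along the gene. In Txnrd1 and Abcc4 the match is on the other strand and reads in reverse.
Txnrd1: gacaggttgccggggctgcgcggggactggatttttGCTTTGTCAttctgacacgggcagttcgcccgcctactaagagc
Ugdh: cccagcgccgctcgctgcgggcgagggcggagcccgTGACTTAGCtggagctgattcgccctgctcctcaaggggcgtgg
Abcc4: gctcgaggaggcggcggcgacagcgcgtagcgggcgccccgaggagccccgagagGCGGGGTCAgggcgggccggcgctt
Txnrd1 encodes thioredoxin reductase and had 152, 143, 144 and 152 CPM in controls and 254, 226, 232 and 231 CPM with furan. Ugdh makes the UDP-glucuronic acid used in glucuronidation and went from 91.6 ± 1.87 to 182 ± 26.1 CPM (log2 0.99 ± 0.09; adjusted p = 2.71e-06). Abcc4 exports conjugates towards blood and went from 6.76 ± 0.225 to 10.9 ± 0.896 CPM (log2 0.68 ± 0.13; adjusted p = 0.00191). Srxn1, Ephx1 and Nqo1 had no match in their windows, which says only that these letters are not there. The core occurred in 14.4% of 905 genes called higher and 14.7% of 865 called lower that had a window. Since 78.2% of all genes tested had a window, under the 80% set as a minimum, these shares are given as a description only.

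Many heat shock proteins and their partners rose. Of 40 tested, 17 rose and 0 fell (median 0.25), and 11 rose without both libraries. With control animal 3 or control animal 4 left out, 11 rose in each case. Hspa8, the constitutive HSP70 of the cytosol, had 36.2, 39.3, 35.9 and 38.8 CPM in controls and 57.9, 54.3, 55.2 and 66.5 CPM with furan (log2 0.64 ± 0.08; adjusted p = 3.97e-05). The inducible HSP90 gene Hsp90aa1 rose by 1.08 ± 0.14, its constitutive relative Hsp90ab1 by 0.36 ± 0.07, and the HSP110 genes Hsph1 and Hspa4l by 0.72 and 0.87. Co-chaperones that pass clients between these machines rose too: Stip1 by 0.37, Bag3 by 0.40, Ptges3 by 0.28 and Chordc1 by 0.53. The inducible Hspa1b stayed uncalled at 1.21 ± 0.60. Of 13 subunits of prefoldin and of the chaperonin that folds actin and tubulin, 7 rose and 0 fell (5 and 0 without both libraries). The chaperonin gene Cct3 rose by 0.55 ± 0.10. Of 16 tubulin genes 4 rose and 0 fell (4 and 0 without both libraries), with Tubb2a at 2.02 ± 0.22 and Tubb4b at 1.11 ± 0.13, and reads of these near-identical genes may be shared.

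The heat shock element consists of repeats of a 5-base unit, and the pair GAANNTTC was searched in the same way. It occurred in 9 of the 33 heat shock genes with a window, or 27.3%, against 7.73% of all genes of the table and 6.31% of tested genes with a window. A window was found for 13 of the 17 called members, fewer than 80%, and 2 of these held it, or 15.4%, and both windows are shown with the pair in capitals, for Dnaja1 at chr4:40722308-40722387 and Hspb1 at chr5:135887766-135887845, both on the plus strand of GRCm38.p6 by RefSeq.
Dnaja1: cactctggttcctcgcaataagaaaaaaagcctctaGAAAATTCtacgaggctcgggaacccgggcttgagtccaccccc
Hspb1: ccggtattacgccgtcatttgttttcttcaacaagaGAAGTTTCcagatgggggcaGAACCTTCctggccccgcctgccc
Dnaja1, a partner of HSP70, rose from 55.5 ± 3.28 to 74.0 ± 7.40 CPM (log2 0.41 ± 0.08; adjusted p = 0.00146). Hspb1, the small heat shock protein HSP27, whose window holds 2 pairs, rose from 0.692 ± 0.243 to 1.69 ± 0.686 CPM (log2 1.28 ± 0.41; adjusted p = 0.0422).

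Chaperones of the endoplasmic reticulum gave fewer calls. Of 35 genes of that compartment and the unfolded protein response 4 rose and 2 fell (median 0.06), with 3 and 0 without both libraries and 1 to 3 rises with 1 library left out, fewest without control animal 3, and the HSP70 of that compartment, Hspa5, was not called (0.21 ± 0.13). The difference between these lists was not tested. The ATF4 branch, which responds to amino acid shortage and to stress of several kinds, gave 10 rises and 1 fall among 30 tested genes (7 and 0 without both libraries). Atf4 itself rose from 75.8 ± 5.24 to 113 ± 6.80 CPM (log2 0.57 ± 0.07; adjusted p = 2.82e-05), and Atf3, a stress-induced repressor, from 1.26 ± 0.309 to 5.73 ± 0.840 CPM (log2 2.18 ± 0.24). The stress hormones Gdf15 and Fgf21 rose by 1.58 and 1.31 and the mitochondrial folate enzyme Mthfd2 by 1.55. Trib3, a pseudokinase that restrains this branch, fell by 1.09. ATF4 and NRF2 lists share Slc7a11, and p53 and ATF4 lists share Sesn2, Gdf15 and Ddit4.

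Many factors that build ribosomes rose. Of 71 factors that process ribosomal RNA and assemble ribosomes 24 rose and 0 fell (median 0.24), 18 without both libraries and 17 to 22 with 1 library left out. Utp20, of the small-subunit processome, had 50.6, 46.4, 41.3 and 48.7 CPM in controls and 67.9, 75.1, 68.2 and 72.3 CPM with furan (log2 0.60 ± 0.07; adjusted p = 4.13e-05). The groups did not overlap. Heatr1, which is needed for transcription of ribosomal RNA, rose by 0.57 ± 0.08, the box C/D snoRNP core protein Nop58 by 0.80 ± 0.14, and the pre-ribosome factor Rrp12 by 0.94 ± 0.15. Subunits of RNA polymerase I were among them, Polr1a at 0.44 and Polr1e at 0.69. Of 67 cytosolic ribosomal protein genes 6 rose and 1 fell, or 8.96% and 1.49%, near and below the shares over all genes. The counts were 3 and 0 without both libraries, and 5 fell without furan animal 41. Rps27l, which p53 induces, had the smallest p of the ribosomal protein genes and rose by 0.61. These genes are short and have many processed copies, so their counts may be shared with copies.

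Translation factors gave 16 rises and 1 fall among 49 tested (median 0.15), with 11 and 0 without both libraries. Abce1, which recycles ribosomes, rose from 94.4 ± 5.66 to 134 ± 4.74 CPM (log2 0.50 ± 0.06; adjusted p = 3.97e-05). Eif4g2, a scaffold for initiation without a cap, rose by 0.34, the cap-binding protein gene Eif4e by 0.44, and the helicase gene Eif4a1 by 0.34, whereas its close relative Eif4a2 fell by 0.27. Of 22 cytosolic tRNA synthetases 7 rose and 0 fell (6 and 0 without both libraries), from Eprs at 0.26 to Rars at 0.56. Gars, the glycyl-tRNA synthetase, had 46.8, 46.5, 46.8 and 44.1 CPM in controls and 71.2, 68.0, 67.8 and 62.1 CPM with furan (log2 0.55 ± 0.07).

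Genes of nuclear transport and of the secretory pathway rose in part. Of 53 importins, exportins and nucleoporins 15 rose and 1 fell (median 0.16), and 8 rose without both libraries. Leaving out control animal 3 or furan animal 43 alone left 9 rises in each case. Xpo1, the main nuclear exporter of proteins and ribosome subunits, had 69.7, 69.0, 66.7 and 66.3 CPM in controls and 98.4, 108, 105 and 97.4 CPM with furan (log2 0.59 ± 0.06; adjusted p = 8.39e-06). The importin gene Kpnb1 rose by 0.52 ± 0.07, and Nup210, a membrane nucleoporin, fell by 0.39. Of 66 genes of the translocon, of N-glycosylation and of vesicle coats 21 rose and 2 fell (median 0.11), with 14 and 1 without both libraries and 13 rises without furan animal 43. They included Sec16b, which organises exit sites, at 0.47, the coat protein gene Arcn1 at 0.39, the translocon partner Ssr1 at 0.38 and both catalytic subunits of oligosaccharyl transferase, Stt3a at 0.29 and Stt3b at 0.28. The falls were Sec31b at -0.64 and Lman2 at -0.20.

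**Figure D3:**
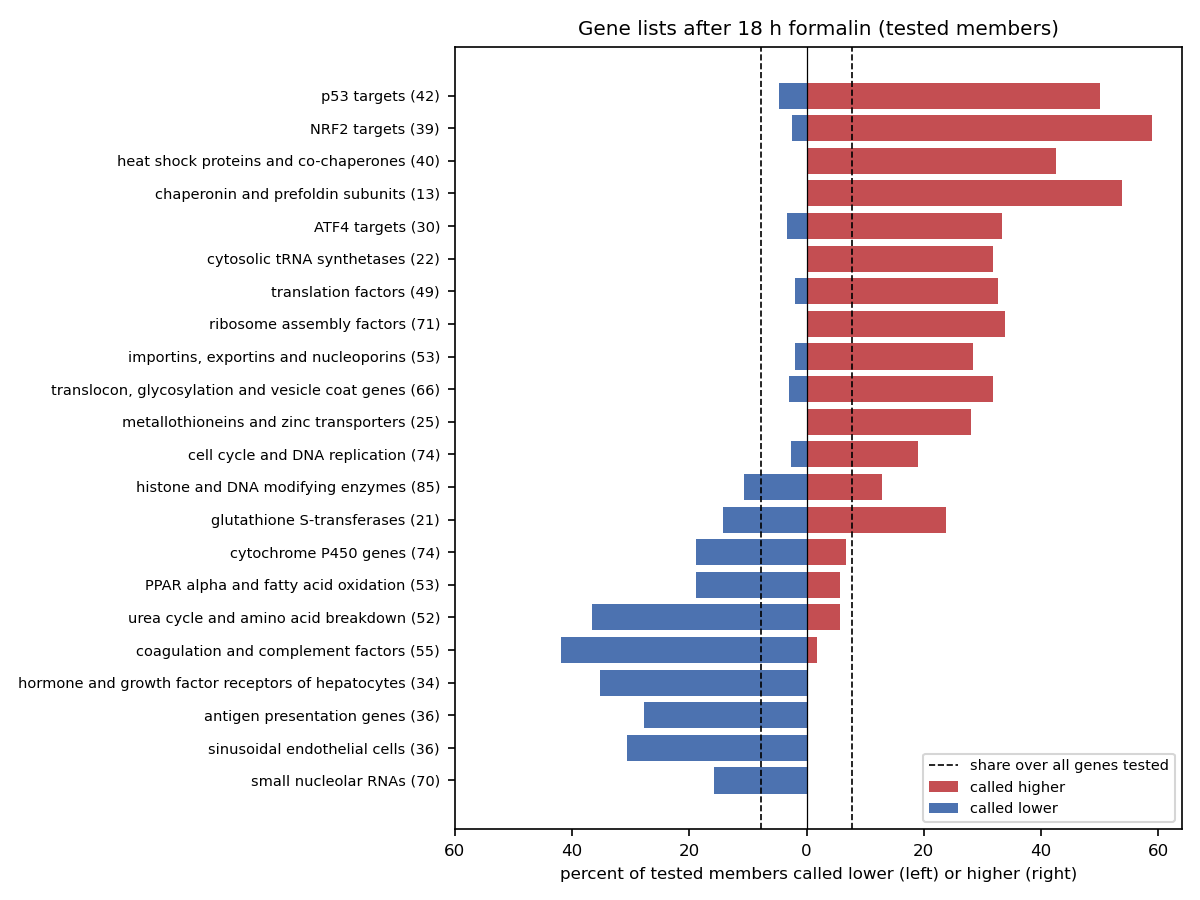
Bars give, for 22 gene lists with the number of tested members in brackets, the percent of tested members called higher (red, to the right) and lower (blue, to the left); dashed lines mark the shares over all genes tested, 7.82% and 7.72%. The lists from p53 targets to zinc transporters extend to the right, and those from amino acid breakdown to small nucleolar RNAs to the left.

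Many clotting and complement factors, which hepatocytes secrete into blood, fell. Of 55 coagulation and complement factors 23 fell and 1 rose (median -0.23), and 15 fell without both libraries. Proc, the anticoagulant protein C, had 258, 265, 271 and 273 CPM in controls and 180.3, 173, 183 and 179 CPM with furan (log2 -0.58 ± 0.06; adjusted p = 3.50e-06). F7, the clotting factor that starts the extrinsic pathway, had 81.7, 89.7, 81.0 and 90.2 CPM in controls and 57.6, 59.4, 52.7 and 51.5 CPM with furan (log2 -0.63 ± 0.07; adjusted p = 1.36e-05). Neither gene had overlapping libraries, and their SDs were small beside the differences. Clotting factors F2, F5, F9, F10, F11 and F12 fell by 0.30, 0.34, 0.26, 0.26, 0.39 and 0.41, and the inhibitors Serpinc1, Serping1 and Pros1 by 0.22, 0.33 and 0.23. In complement, C3, C4b, C2, Cfb, Masp1 and Masp2 fell by 0.23, 0.38, 0.32, 0.32, 0.29 and 0.38. C4bp, the inhibitor that binds C4b, rose by 0.31.

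Of 44 secreted carriers and apolipoproteins 10 fell and 1 rose (5 and 1 without both libraries). Apoe fell by 0.31 ± 0.06 and Apoa1 by 0.30 ± 0.08, whereas Apoc2, the cofactor of lipoprotein lipase, rose from 126 ± 7.33 to 223 ± 18.9 CPM (log2 0.82 ± 0.07; adjusted p = 9.61e-07). Albumin (Alb) was not called, at 0.13 ± 0.07. Mup20 was the only called member of 14 tested major urinary proteins, with both libraries in or out, at 2.52 ± 0.42 (adjusted p = 0.00859), and reads of this family may be shared among its copies. Mst1, which encodes the macrophage stimulating protein, fell from 155 ± 3.83 to 109 ± 3.68 CPM (log2 -0.51 ± 0.06), and its exons overlap those of Rnf123 on the other strand.

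**Figure D4:**
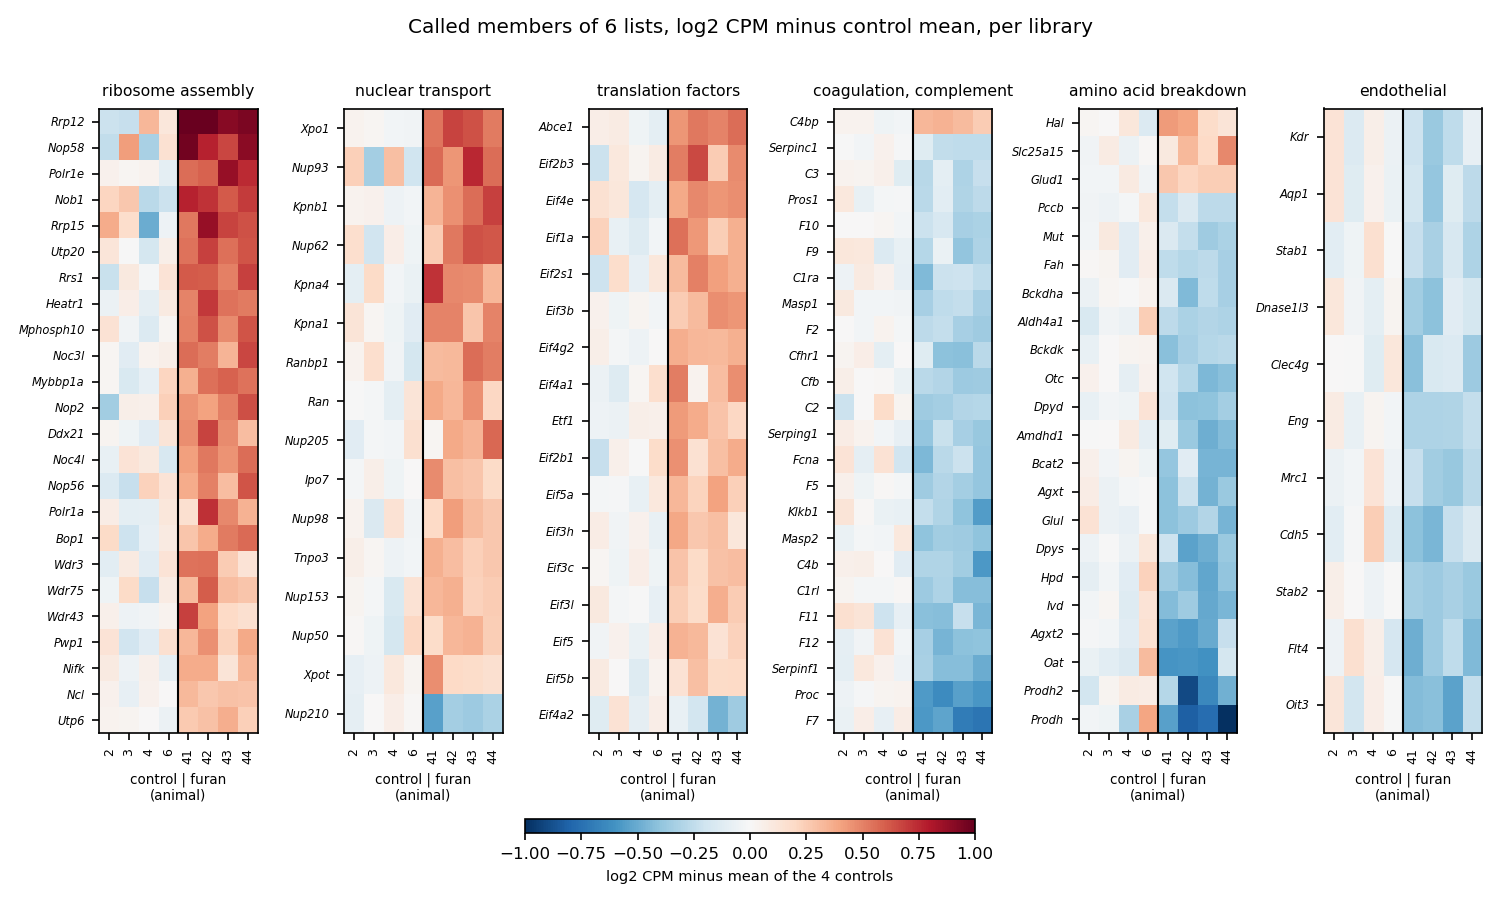
Each row is a called gene of 1 of 6 lists and each column 1 of the 8 libraries (animal number below; controls left of the line), and colour gives log2 CPM minus the mean of the 4 controls, from -1 (blue) to 1 (red). Assembly, nuclear transport and translation genes are red in the furan columns apart from Nup210 and Eif4a2, and the other 3 lists are mostly blue apart from C4bp, Hal, Slc25a15 and Glud1; the rows were chosen because they were called.

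Enzymes of amino acid breakdown fell in part. Of 52 genes of the urea cycle and amino acid breakdown 19 fell and 3 rose (median -0.16), with 15 and 1 without both libraries. Hpd, which breaks down tyrosine, fell from 2061 ± 234 to 1532 ± 73.4 CPM (log2 -0.43 ± 0.08; adjusted p = 9.99e-04). Otc of the urea cycle fell by 0.34 ± 0.07, Ivd of leucine breakdown by 0.44 ± 0.07, and the proline oxidase gene Prodh by 0.80 ± 0.16. The rises were Glud1, glutamate dehydrogenase (0.24), Hal of histidine breakdown (0.29) and the ornithine carrier gene Slc25a15 (0.28). Cps1, the entry enzyme of the urea cycle, was not called (-0.04 ± 0.08). In the pathway from tryptophan to NAD, Acmsd, which diverts the pathway away from NAD, rose from 18.3 ± 1.21 to 39.6 ± 3.52 CPM (log2 1.11 ± 0.09; adjusted p = 7.42e-07), and Kmo rose by 0.40. Ido2, Haao, Afmid, Aadat and Qprt fell by 0.67, 0.36, 0.42, 0.30 and 0.24. Acmsd shares exon sequence with 2900009J06Rik on the other strand.

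None of 34 tested hormone and growth factor receptors rose and 12 fell (median -0.16; 9 lower without both libraries). Gcgr, the glucagon receptor, had 171, 175, 179 and 165 CPM in controls and 128, 111, 128 and 115 CPM with furan (log2 -0.52 ± 0.06; adjusted p = 3.94e-05). The adrenergic receptors Adra1a and Adra1b fell by 1.26 ± 0.14 and 0.44 ± 0.08, the leptin receptor Lepr by 0.74 ± 0.17 and the asialoglycoprotein receptor subunits Asgr1 and Asgr2 by 0.25 and 0.47. Of 26 genes of the growth hormone axis 4 fell and 1 rose (1 and 1 without both libraries), with the growth hormone receptor Ghr at -0.35, Stat5b at -0.48 and the insulin receptor substrate Irs1 at 0.42.

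In lipid handling 10 of 53 genes of PPAR alpha and fatty acid oxidation fell and 3 rose (8 and 3 without both libraries), and 18 fell when furan animal 41 was left out. Acsl1, which activates fatty acids, fell from 1813 ± 176 to 1292 ± 131 CPM (log2 -0.49 ± 0.08; adjusted p = 6.11e-04), while its relative Acsl4 rose by 0.73. Of 42 genes of fatty acid and triglyceride synthesis 9 fell and 3 rose (6 and 2 without both libraries), and 5 fell without furan animal 42 and 5 without furan animal 44. Acacb, an acetyl-CoA carboxylase, fell by 0.99 ± 0.15 and the lipogenic factor Srebf1 by 0.67 ± 0.18. No gene of 77 nuclear-encoded respiratory chain subunits rose and 6 fell (5 without both libraries), and the median over these subunits was -0.03. The share that fell, 7.79%, is near that over all genes.

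Enzymes that act on foreign compounds moved in both directions. Of 74 cytochrome P450 genes 14 fell and 5 rose (median -0.16; 6 and 2 without both libraries). Cyp2e1, the P450 that oxidises furan, had 8659.9, 7570.1, 8059 and 8438 CPM in controls and 5511, 5805, 4914 and 4880 CPM with furan (log2 -0.63 ± 0.07; adjusted p = 2.01e-05). Every control lay above every furan library. Cyp1a2 fell by 0.55 ± 0.12 and Cyp2d13 by 0.62 ± 0.06, whereas Cyp3a11 rose by 0.33 ± 0.08 and Cyp2a4 by 1.27 ± 0.11. Cyp2a4 is nearly identical to Cyp2a5, so its reads may be split. Among glucuronosyltransferases and their supply 6 of 21 rose and 2 fell (6 and 2 without both libraries). Ugt2b35, the gene with the smallest p of the whole comparison, had 200.2, 183, 194 and 171 CPM in controls and 456, 464, 419.6 and 455 CPM with furan (log2 1.26 ± 0.07; adjusted p = 5.26e-09).

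Members of 1 family moved in opposite directions in several cases. Among carboxylesterases Ces2c, Ces2e and Ces1g rose by 1.66, 0.75 and 0.61, and Ces4a, Ces1e, Ces3a, Ces2a and Ces1f fell by 1.30, 0.65, 0.56, 0.49 and 0.39. Among aldehyde dehydrogenases Aldh1a1, Aldh1a7 and Aldh1b1 rose by 0.54, 0.65 and 0.62, and Aldh16a1 and Aldh4a1 fell by 0.45 and 0.30. Of 14 aldo-keto reductases, which reduce aldehydes and ketones, 4 rose and 0 fell (1 and 0 without both libraries). Abcc6, a transporter of the basolateral membrane, was the most certain fall, with 251, 274, 281 and 287 CPM in controls and 135, 131, 142 and 129 CPM with furan (log2 -1.02 ± 0.06; adjusted p = 3.43e-08). The uptake carriers Slco2b1, Slc10a1 and Slco1b2 fell by 0.76, 0.43 and 0.40. Of 25 metallothioneins and zinc transporters 7 rose and 0 fell, all 7 of them zinc transporters, with Slc39a10 at 0.80 ± 0.16; the count ranged over 3 to 6 with 1 library left out and was 3 without both libraries, the lowest (3) without control animal 4 or furan animal 43.

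Both zones of the liver lobule held falls. Of 40 genes typical of hepatocytes near the central vein 12 fell and 4 rose (10 and 3 without both libraries), and of 34 typical of those near the portal tract 7 fell and 4 rose (5 and 3 without both libraries). Near the central vein, where Cyp2e1 is made, Glul, glutamine synthetase, fell by 0.38 ± 0.07, the Wnt feedback gene Notum by 0.80 ± 0.11 and the nuclear receptor Nr1i3 by 0.72 ± 0.13. Of the portal set Pigr, the carrier of immunoglobulin into bile, fell by 0.62 ± 0.12 and Hsd17b6 by 0.53 ± 0.08. The difference between zones was not tested.

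Among markers of other cell types, those of endothelium gave the most calls in 1 direction. None of 36 tested genes of sinusoidal endothelial cells rose and 11 fell (median -0.23; 7 without both libraries and 7 without furan animal 42). Stab2, a scavenger receptor of these cells, had 285, 274, 264 and 273 CPM in controls and 217, 212, 219 and 212 CPM with furan (log2 -0.35 ± 0.06; adjusted p = 4.55e-04). Oit3, Flt4, Mrc1 and Kdr fell by 0.41, 0.39, 0.31 and 0.23, and Lyve1 was not called (0.11 ± 0.14). The 36 endothelial genes summed to 2130 to 2341 CPM of total counts in controls and 1872 to 2057 with furan. The count of falls depended on the scaling, with 16 under upper-quartile scaling and 6 on library totals alone, and no member rose under either. In bulk tissue fewer cells of a type and less RNA per cell cannot be told apart.

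Of 31 macrophage genes 2 rose and 0 fell, and 1 rose without both libraries, where Hmox1 no longer passed. The share that rose, 6.45%, lies below that over all genes. The rises were Mmp12, macrophage elastase (4.44 ± 0.56), and Hmox1, heme oxygenase (1.60 ± 0.38), which NRF2 also drives. The resident-macrophage markers Clec4f, Vsig4, Cd5l and Csf1r were not called, with log2 fold changes of -0.19 ± 0.14, -0.32 ± 0.31, -0.36 ± 0.26 and -0.32 ± 0.21. Of 51 genes of stellate cells and collagens 3 rose and 3 fell (2 and 2 without both libraries), 5.88% each way and below the shares over all genes. Among them were Col3a1, the fibrillar collagen III, at 0.31 ± 0.09, Col5a3 at 0.85 ± 0.12, and Col18a1, which hepatocytes also make, at -0.47 ± 0.07. With edgeR 0 of 23 lymphocyte genes and 0 of 3 neutrophil genes were called (1 and 0 lower without both libraries), and 1 and 0 had an unadjusted p below 0.05. The neutrophil genes Elane and Mpo had no count in any of the 8 libraries. Hemoglobin genes were also listed at 0 in every library, so blood content could not be judged from them.

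Genes of antigen presentation fell where they were called, and the members named here act in presentation on MHC class I. Of 36 tested 10 fell and 0 rose (median -0.20; 8 lower without both libraries). H2-K1, a class I heavy chain, fell from 521 ± 41.5 to 413 ± 12.2 CPM (log2 -0.34 ± 0.07; adjusted p = 0.002), and H2-T23 by 0.44. Tapbp, which loads peptides, fell by 0.28 ± 0.07, the immunoproteasome subunits Psmb8 and Psmb9 by 0.33 and 0.55, the peptide pump subunit Tap2 by 0.31, and Nlrc5, the factor that switches these genes on, by 0.55 ± 0.13. Class I genes are close in sequence and polymorphic between the parental strains, so their counts may be shared or lost. Of 103 interferon response genes 2 rose and 1 fell (2 and 0 without both libraries, and 5 falls without control animal 6), among them Cxcl10, a chemokine, at 1.21 ± 0.24. These shares, 1.94% and 0.971%, lie below those over all genes.

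Cell-cycle genes rose in part. Of 74 tested 14 rose and 2 fell (median 0.53), among them the mitotic genes Tpx2 at 1.70 ± 0.33 and Cdk1 at 1.23 ± 0.37 and the replication genes Mcm2 and Mcm6 at 0.93 and 0.82. The calls depended on single animals, with 4 to 19 rises when 1 library was left out. The low counts were 4 without furan animal 44, 7 without control animal 2, 7 without control animal 4 and 9 without furan animal 43. Without both libraries 3 rose, against a fold of 1.2 there were 2 rises, and the fit over all 24 libraries gave 0. Other lists gave fewer calls in these checks too. Ribosome assembly factors gave 5 rises against a fold of 1.2 and 2 in the fit over all 24 libraries. Coagulation and complement factors gave 2 and 5 falls, antigen presentation genes 0 and 1, and endothelial genes 0 and 1. The p53 targets gave 19 and 11 rises, and the NRF2 targets 14 and 11. Tk1, thymidine kinase, fell from 14.6 ± 2.78 to 7.62 ± 1.38 CPM (log2 -0.94 ± 0.16). Ccnd3, a cyclin of the start of the cycle, fell by 0.54 ± 0.14. Exons of Tk1 overlap those of Afmid, which also fell, and exons of Ccnd3 those of Bysl, each on the other strand. Reads of both genes may therefore be shared with these neighbours.

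Small nucleolar RNAs guide the modification of ribosomal RNA and lie within introns of host genes. Of 70 tested 11 fell and 0 rose (median -0.33; 8 lower without both libraries), opposite to the rise of the assembly factors above. They made up 0.0863, 0.0805, 0.0858 and 0.0956% of all counts in controls and 0.0673, 0.0762, 0.0621 and 0.0707% with furan. The groups did not overlap (exact permutation test, two-sided, p = 0.0286, the smallest that 4 against 4 allows; 0.286 after adjustment over 10 library measures). Snora23 fell from 118 ± 14.2 to 83.1 ± 7.06 CPM (log2 -0.50 ± 0.08). Of 48 SR proteins, CLK kinases and hnRNPs 3 rose and 3 fell (median -0.00; 2 and 3 without both libraries), 6.25% each way and below the shares over all genes. Among them Srsf5 had 87.0, 84.9, 86.8 and 91.0 CPM in controls and 56.2, 59.3, 59.0 and 60.4 CPM with furan (log2 -0.57 ± 0.06; adjusted p = 9.22e-06), and the RNA helicase gene Ddx17 fell from 453 ± 20.5 to 309 ± 16.6 CPM (log2 -0.55 ± 0.06). Of 51 core spliceosome proteins 5 rose and 0 fell, and the share that rose, 9.80%, is near that over all genes. Without both libraries 2 rose, and 2 to 5 with 1 library left out, fewest without control animal 3 or furan animal 42. Sf3b3 rose by 0.61 ± 0.06.

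Animals of a group lay close together. For genes above 32 CPM the coefficient of variation between animals was 9.10% after 18 h in formalin, 14.7% in frozen tissue and 17.6% after 3 weeks. It stayed at 9.21% when every library was thinned to 5560002 counts, and 1608 genes were then called. In frozen tissue the groups differed: the median SD of log2 CPM over tested genes was 0.309 in controls and 0.184 with furan. After 18 h this median was 0.175 in both groups, and after 3 weeks it was 0.410 in controls and 0.402 with furan. The 16 most certain changes under 1.5-fold were chosen by p. Spred1, a brake on growth factor signalling, rose from 71.9 ± 2.10 to 106 ± 2.67 CPM (log2 0.57 ± 0.06; adjusted p = 7.85e-06). Chd1, a chromatin remodeller, rose from 104 ± 4.78 to 152 ± 7.44 CPM and Lrrc58, a leucine-rich repeat gene, from 259 ± 12.8 to 372 ± 21.2 CPM. Ugt2b5 rose by 0.57 ± 0.06 and Slc35d1, which carries UDP-sugars into the endoplasmic reticulum, by 0.50 ± 0.06. Fcgrt, which encodes the neonatal Fc receptor that spares albumin and antibodies from breakdown, fell from 142 ± 5.72 to 97.1 ± 6.33 CPM (log2 -0.54 ± 0.06; adjusted p = 2.20e-05). Clec2d, a ligand of natural killer cell receptors, Slc12a7, a potassium chloride carrier, and Fyco1, a transport adaptor of autophagosomes, fell by 0.56, 0.57 and 0.51.

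Among the 100 genes with the most counts, 31 were called, 27 lower and 4 higher. In the fifth of genes with the highest counts 30.6% were called, 418 genes higher and 450 lower. The rises were Abcc2 (0.41 ± 0.08), the alcohol dehydrogenase gene Adh1 (0.28 ± 0.07), Glud1 (0.24 ± 0.06) and Cyp3a11 (0.33 ± 0.08), of which Cyp3a11 overlapped between groups. Uox, which degrades uric acid in mice, fell from 1896 ± 172 to 1371 ± 133 CPM (log2 -0.47 ± 0.08; adjusted p = 6.88e-04), and Col18a1 from 1202 ± 49.6 to 866 ± 92.1 CPM. Since CPM are shares of a library, a fall of abundant genes and a rise of others are not independent. Scaling on library totals alone moved the median of all genes by 0.0275 on the log2 scale and upper-quartile scaling by -0.0226.

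The same livers gave fewer calls in their other pieces, 392 of 14122 genes (2.78%) in frozen tissue and 335 of 12983 (2.58%) after 3 weeks. Single libraries moved these counts: in frozen tissue 1148 genes were called without control animal 3, 353 without control animal 2 and 99 to 182 without any other animal, and after 3 weeks 218 without furan animal 44. The pieces share their animals, so these values are no independent repeat. Frozen RNA was extracted with another kit and the 3 week RNA from 2 sections, so preservation and extraction cannot be told apart. In frozen tissue and after 3 weeks Spred1 had log2 fold changes of 0.55 ± 0.19 and 0.49 ± 0.14, and it was called in neither (adjusted p = 0.153 and 0.0548). Proc had -0.66 ± 0.17 and -0.27 ± 0.12 (adjusted p = 0.0734 and 0.355), Atf4 0.54 ± 0.09 and 0.43 ± 0.14, Utp20 0.62 ± 0.10 and 0.58 ± 0.20, and Xpo1 0.70 ± 0.13 and 0.50 ± 0.14. For F7 they were -0.63 ± 0.19 and -0.45 ± 0.22, for Gcgr -0.58 ± 0.18 and -0.55 ± 0.14, and for Stab2 -0.42 ± 0.10 and -0.35 ± 0.11. A gene called after 18 h and not elsewhere is not shown to differ between pieces, and the difference itself was tested as an interaction. With edgeR 0 of 14843 genes (0%) differed between 18 h and frozen tissue and 0 of 14414 (0%) between 18 h and 3 weeks. An unadjusted p below 0.05 was reached by 239 genes (1.61%) and 766 genes (5.31%), where chance alone gives a share of about 0.05. The lack of calls does not show that the pieces responded alike.

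**Figure D5:**
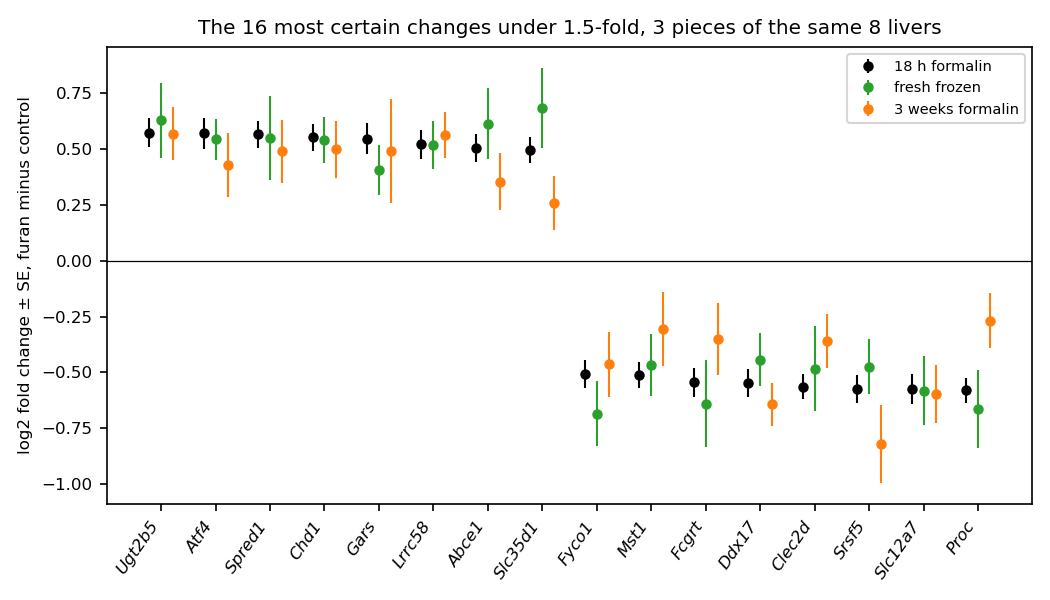
For the 16 most certain changes under 1.5-fold, points give the log2 fold change, furan minus control, and bars its standard error, after 18 h in formalin (black), in frozen tissue (green) and after 3 weeks in formalin (orange), each from 4 control and 4 furan pieces of the same livers. Black bars are the shortest in each set of 3, and the genes were chosen by their p after 18 h.

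No interaction passed the test, and examples from those with small p-values follow. Acmsd had log2 fold changes of 1.11 ± 0.09 after 18 h, 1.76 ± 0.15 in frozen tissue and 0.66 ± 0.26 after 3 weeks (adjusted p of the interaction with frozen tissue = 1.00). Snora28 had log2 fold changes of -0.46 ± 0.11 after 18 h and 0.72 ± 0.31 in frozen tissue, and it lies within Eif5. The ribosomal protein gene Rps15 had -0.52 ± 0.15 after 18 h and 0.83 ± 0.33 after 3 weeks (adjusted p of the interaction = 0.495).

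Some genes differed widely between animals of the same group and were not called. Serpina1e, a protease inhibitor gene of a family with near-identical copies, had 1627, 1122, 665 and 379 CPM in controls and 103, 438, 479 and 256 CPM with furan (adjusted p = 0.172). Rgs16, a regulator of G-protein signalling, had 33.1 to 82.3 CPM in controls and 6.06 to 66.3 CPM with furan (adjusted p = 0.425). Cyp26b1, which degrades retinoic acid, had 16.4, 19.3, 31.4 and 1.19 CPM in controls and 24.7, 6.29, 2.97 and 30.1 CPM with furan (adjusted p = 0.971). In all 3 genes the groups overlapped.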

How the data were processed

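RNA-seq was made from liver sections of 8 mice, and the deposited table holds raw read counts per gene symbol for 24 libraries. The authors aligned reads to mm9 with STAR 2.3.0 after CASAVA 1.8.2 and counted them with featureCounts 1.4.4, per the submitters' processing notes. The strand setting and the treatment of multi-mapped reads are not given in the sources used here, so overlapping, antisense and near-identical genes are uncertain. Columns were matched to samples by title, and 0 per-sample columns were left unused. Groups follow the labels.

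Furan and control libraries kept 18 h in formalin were compared with edgeR 4.0.16 in R 4.3.3: filterByExpr, TMM scaling and the robust quasi-likelihood test, with Benjamini-Hochberg adjustment over all genes tested at 0.05. CPM are TMM-scaled. Values after ± are SD beside CPM (n = 4) and standard errors beside log2 fold changes. Interactions with the other pieces were fitted over 16 libraries. The fit was checked on simulated data. DESeq2 1.42.0, other scalings, other filters, a fold threshold, thinning and left-out libraries were tried.

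Named genes were, among called genes without overlap and with a mean log2 CPM of at least 1, the 12 largest rises and falls, the 10 with the smallest p each way and 8 each way below 1.5-fold. Without the condition on overlap they were abundant called genes, up to 4 members per list with further members as background, the smallest interaction p-values, and 8 genes with the largest spread. The text gives a part of these. The comparison and the gene lists were chosen with earlier results of these data known. The same mice gave all 3 pieces of liver, per the labels; with frozen tissue, deviations of the same animal correlated at 0.0281 to 0.311, and with 3 weeks at 0.0456 to 0.126. Promoter windows came from RefSeq (GRCm38.p6).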

Additional observations from a re-analysis of the deposited data

Results flagged for a closer look

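Of 176 groups of 4 libraries examined, 14 had 1 library far from the other 3, and chance alone marks about 1 in 20 groups. Among controls, animal 6 stood apart for Mmp12 (0.485 CPM, others 0.120 to 0.175), Dusp8 (0.617 CPM), Gars (44.1 CPM, below the others) and Cyp3a11 (2396 CPM, above the others), and animal 4 for Glud1 (1227 CPM). Among furan libraries, animal 42 stood apart for Ephx1 (356 CPM, others 458 to 475), animal 43 for Chd1 (141.3 CPM) and Slc15a2 (14.6 CPM), animal 44 for Clec2d (174 CPM) and Ttn (226 CPM, others 13.7 to 19.6), and animal 41 for Mst1 (114.0 CPM) and Acsl1 (1485 CPM). Total counts stood apart in control animal 3 (25.3 M counts) and furan animal 41 (28.1 M counts).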

How the results depend on the processing

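After 18 h in formalin, 2198 genes were called with DESeq2 size factors, 2239 with upper-quartile scaling, 2229 on library totals alone, 2433 with the DESeq2 test, 2149 without a filter on low counts and 2240 with a mean count of at least 50. Against a fold of 1.2, 485 were called, 246 higher and 239 lower. A fit over all 24 libraries, which shares 1 estimate of the spread with the more variable pieces, called 305, 137 higher and 168 lower. Without control animal 2 and furan animal 44, an alternative chosen after seeing the data, 1417 were called, 709 higher and 708 lower, and 1327 of these were among the 2208. With 1 library left out, calls ranged from 1582 to 2061, higher calls from 730 to 963 and lower calls from 852 to 1154. Rises made up 43.2% of calls with upper-quartile scaling and 59.1% on library totals alone. Of 345 single genes examined (339 with the DESeq2 test, 325 with a mean count of at least 50 and 326 after thinning), 0 were called in the opposite direction. The genes were chosen from this comparison, mostly for their calls or small p, which makes a reversal unlikely. Of the 345, 167 lost their call in the fit over all 24 libraries and 138 against a fold of 1.2. Without control animal 2 and furan animal 44, 42 lost it.

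In frozen tissue the calls ranged from 99 to 1148 and after 3 weeks from 218 to 280 with 1 library left out. Thinned to 5560002 counts, the libraries gave 1608 calls after 18 h, 270 in frozen tissue and 348 after 3 weeks. Since each liver gave all pieces, the interactions were also fitted with the animal as a replicate block. This called 0 genes against frozen tissue and 0 against 3 weeks, with 340 (2.29%) and 795 (5.52%) at an unadjusted p below 0.05 (edgeR). With 1 animal left out, the interaction with 3 weeks called 0 to 1 genes, Rprl3 without furan animal 41, and that with frozen tissue 0.

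Depth limits genes of low level most: below 2.52 CPM no change under 1.77-fold was called. The 4 animals of a group were of 1 strain, sex and dose.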

Other observations

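Slc15a2, a peptide carrier, had 7.77, 1.58, 0.86 and 11.6 CPM of total counts in controls and 0.82, 0.125, 14.9 and 0.498 with furan after 18 h, so that control animals 2 and 6 and furan animal 43 were high. The same 3 animals were the highest in the other pieces, though not in the same order. In frozen tissue the same 3 animals had 5.67, 9.44 and 8.14 CPM and the others at most 0.588 CPM. After 3 weeks they had 6.40, 21.3 and 18.8 CPM and the others at most 3.63 CPM. Slc15a2 was chosen by its spread between animals.

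Transcripts of skeletal muscle differed between pieces of the same liver. Over 9 muscle genes without Ttn, which had counts in every library, furan animal 44 had 628 counts after 18 h, 5 in frozen tissue and 1 after 3 weeks. These are raw counts, and depth differed between the pieces. After 3 weeks control animal 3 had 1920 counts in the same genes, control animal 6 had 563 and furan animal 42 had 2468. Dmbt1, a secreted scavenger receptor of mucosal surfaces, had 186, 146, 1.03 and 45.2 CPM of total counts in controls and 22.6, 11.8, 74.5 and 58.3 with furan after 18 h, whereas the frozen pieces of the same livers had at most 0.677 CPM.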
